A study of Mus musculus with 8 samples.

Results

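The EGR and AP-1 immediate early genes described here were 10 genes, Egr1, Egr2, Egr3, Fos, Fosb, Jun, Junb, Jund, Atf3 and Ier2, taken by symbol from a table of 55376 genes. Of these, 9 were among the 13721 genes that passed the filter on low counts and were tested, and Jund was listed at 0 in every library. Polyadenylated RNA was sequenced from macrophages grown from the bone marrow of male mice aged 13 weeks, 3 mice of each genotype, in M-CSF at 50 ng/mL. The genotype was DNMT3A-HET (HET) or wild type (WT), and IL-6 at 10 ng/mL was either added on the way to collection on day 8, for the last 2 days, or left out (control). The 4 groups, HET IL-6, HET control, WT IL-6 and WT control, held 2 libraries each, numbered 1 and 2. The labels give neither the DNMT3A allele nor the mouse behind each library, so a p-value reflects only how far these libraries scatter, part of which may be technical. All groups were grown in M-CSF, itself a growth factor that acts through MAP kinase signalling, so no group was without that stimulus.

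Immediate early genes are transcribed within minutes of a stimulus, without the need for new protein, and their transcripts and proteins are short-lived. Growth factor receptors drive them through MAP kinases, which act on serum response factor with its ternary complex partners and on CREB family factors bound to the promoters. The EGR proteins are zinc finger transcription factors that bind GC-rich sites and are held back by the corepressors NAB1 and NAB2. FOS and JUN family proteins pair through leucine zippers to form AP-1, in which JUN proteins can pair with each other but FOS proteins need a JUN partner. In macrophages, M-CSF and inflammatory stimuli both induce members of these families.

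Library number 2 of HET IL-6 was the deepest, with 50137897 counts, and the other 7 held 18926641 to 24881197. Levels are in CPM, the counts scaled to a common library size, and 3 counts equalled 0.0608 to 0.161 CPM. Dnmt3a was at 140 and 213 CPM in HET IL-6, 166 and 248 CPM in HET control, 175 and 183 CPM in WT IL-6, and 275 and 244 CPM in WT control (numbers 1 and 2 in each group). The libraries labelled HET with number 2 were thus not below both WT libraries of their treatment, and values without them are also given below. Dnmt3a was not called by edgeR between HET and WT, after IL-6 (log2 fold change -0.02 ± 0.25, adjusted p = 0.972) or in control (-0.32 ± 0.25, adjusted p = 0.506). The 8 macrophage markers, Adgre1, Csf1r, Cd68 and Lyz2 among them, summed to 11898 to 14141 CPM per library. Markers of T and NK cells, B cells, erythroid cells, neutrophils and dendritic cells summed to at most 4.14 CPM per list and library, with the B cell gene Pax5 and the T cell gene Cd3e at 0 throughout. Those of mast cells and basophils, mostly Kit, and of stromal cells summed to at most 8.40 and 10.4 CPM. Those of endothelial cells, mostly Kdr, summed to 27.9 to 56.0 CPM, and those of megakaryocytes, mostly Pf4, to 122 to 296 CPM.

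The genes lie on 8 chromosomes in the mm10 build. Egr1 (chromosome 18, 34859823 to 34864984, plus strand) has 4484 exonic bases, Egr2 (chromosome 10, 67535475 to 67542188, plus) 3398 and Egr3 (chromosome 14, 70077203 to 70082614, plus) 4406. Fos (chromosome 12, 85473890 to 85477273, plus) has 2352 exonic bases and Fosb (chromosome 7, 19302696 to 19310051, minus) 6243. Jun (chromosome 4, 95049034 to 95052222, minus) has 3189 exonic bases in 1 exon, and Junb (chromosome 8, 84974484 to 84978718, minus) has 2301. Atf3 (chromosome 1, 191170296 to 191218039, minus) has 2154 exonic bases and Ier2 (chromosome 8, 84661331 to 84662854, minus) 1524 in 1 exon. Antisense genes overlap 7.3% of the exon bases of Jun and 7.5% of those of Junb. The strand setting of the counting is not given in the sources used here, so the share of their counts affected is not known.

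Jund (chromosome 8, 70698949 to 70700616, plus), whose protein is the JUN family member usually present in resting cells, had a count of 0 in all 8 libraries. Its antisense neighbour Gm11175 overlaps 52.6% of its exon bases and was also listed at 0, as was the next gene Iqcn, whereas the adjacent Lsm4 had 4158 counts over the 8 libraries. Since the table has a run of zeros there, the value of Jund is given as listed at 0, with no statement on its expression.

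The bases just upstream of the transcription start are shown for Fos, Fosb, Jun, Junb and Atf3, which fell after IL-6 in WT macrophages. They are the 150 bases that end at the base before the start, 5′ to 3′ on the gene's strand, from RefSeq on GRCm38.p6. Egr1, Egr3 and Ier2 also fell in WT but are not shown, and no RefSeq window was at hand for Egr3 and Ier2. Capitals mark matches to the core of the cyclic AMP response element (CRE; TGACG), the CCAAT box (CCAAT), the TATA box (TATAAA) and one EGR site form (GCGGGGGCG), each searched on both strands.
Fos: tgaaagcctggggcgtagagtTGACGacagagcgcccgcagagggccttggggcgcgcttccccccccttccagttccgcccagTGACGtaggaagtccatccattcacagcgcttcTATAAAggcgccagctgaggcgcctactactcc
Fosb: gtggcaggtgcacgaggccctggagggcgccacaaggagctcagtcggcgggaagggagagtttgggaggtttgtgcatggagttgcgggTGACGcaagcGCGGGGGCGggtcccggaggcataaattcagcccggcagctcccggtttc
Jun: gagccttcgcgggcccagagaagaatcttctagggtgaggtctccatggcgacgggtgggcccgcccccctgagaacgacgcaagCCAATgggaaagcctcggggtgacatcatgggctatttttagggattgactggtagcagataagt
Junb: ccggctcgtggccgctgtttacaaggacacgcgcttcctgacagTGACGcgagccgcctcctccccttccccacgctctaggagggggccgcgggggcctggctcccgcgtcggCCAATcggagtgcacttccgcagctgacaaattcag
Atf3: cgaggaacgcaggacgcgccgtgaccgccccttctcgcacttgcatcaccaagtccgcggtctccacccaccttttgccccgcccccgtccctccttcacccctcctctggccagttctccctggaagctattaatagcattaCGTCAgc
They lie at chr12:85473740-85473889 (plus strand) for Fos and, on the minus strand, at chr7:19310046-19310195 for Fosb, chr4:95052223-95052372 for Jun, chr8:84978749-84978898 for Junb and chr1:191183334-191183483 for Atf3. The Atf3 start is one that lies inside the gene model used for counting. The Fos stretch holds CRE cores at -129 and -66 and a TATA box at -33, counted from the start. In Fosb a CRE core at -60 is followed by the EGR form at -50. Junb has a CRE core at -106 and a CCAAT box at -36, and Jun a CCAAT box at -65. The Atf3 stretch has a CRE core on the opposite strand at -7. Of all 32851 promoter windows of 300 bases in the RefSeq table, 20.8% held the CRE core, 37.4% the CCAAT box, 13.6% the TATA box and 2.91% this EGR form. Those windows run from 250 bases before the start to 50 after it, so their shares are not for the 150 bases shown. In the bases after the start, Junb also had a TATA box at 1 and Atf3 a CCAAT box at 6. A full CRE (TGACGTCA, in 1.79% of windows) or AP-1 site (TGACTCA, in 5.2%) was in none of these 5 stretches. The same held for the CArG box (CC, A or T bases, then GG), which was in 1.63% of windows. Egr2, which was not called after IL-6 in WT, had a CArG box upstream of some of its starts. These matches are a description of the letters, and binding was not measured.

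Taken by group means, WT IL-6 was the lowest of the 4 groups for 8 of the 9 tested genes, all but Egr2. WT control was the highest for Egr1, Egr2, Egr3, Fos, Jun and Atf3, and a HET group was the highest for Fosb, Junb and Ier2. The libraries of WT IL-6 lay below all 6 others for Egr1, Fos, Fosb, Jun, Junb, Atf3 and Ier2, and for Egr3 they overlapped those of HET IL-6. On the scale of CPM per kilobase of exon, group means of Atf3 ran from 152 to 281, of Fos from 70.5 to 122 and of Junb from 53.5 to 123. Those of Fosb ran from 20.8 to 33.9, of Ier2 from 13.8 to 28.0, of Jun from 13.5 to 27.8 and of Egr1 from 5.19 to 14.5. Egr3, at 0.379 to 2.85, and Egr2, at 0.208 to 0.332, were the lowest per length.

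Egr1 encodes the founding EGR factor. In the order number 1 and number 2, it was at 40.7 and 29.8 CPM in HET IL-6, 40.3 and 40.7 CPM in HET control, 23.2 and 23.4 CPM in WT IL-6, and 82.0 and 48.3 CPM in WT control. Both WT control libraries were above, and both WT IL-6 libraries below, all HET libraries, whose 2 treatments overlapped. Egr3 encodes a related factor that is itself induced by EGR1 in some cells. It was measured at 2.86 and 1.70 CPM in HET IL-6, 6.08 and 7.61 CPM in HET control, 1.41 and 1.93 CPM in WT IL-6, and 13.4 and 11.7 CPM in WT control. The IL-6 libraries of both genotypes overlapped at the low end, and the control libraries of WT were above those of HET. Egr2, known in macrophages as a gene of alternative activation, was the least abundant of the set, at 0.705 and 0.709 CPM in HET IL-6, 0.744 and 1.17 CPM in HET control, 0.620 and 1.29 CPM in WT IL-6, and 1.16 and 1.10 CPM in WT control. Each library held 15 to 35 counts of Egr2, and neighbouring groups in the order of means overlapped.

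Fos encodes the prototype FOS partner of AP-1. It was at 287 and 233 CPM in HET IL-6, 246 and 257 CPM in HET control, 173 and 158 CPM in WT IL-6, and 332 and 240 CPM in WT control. Only the WT IL-6 libraries stood apart from the other groups. Fosb, a FOS paralog, was at 190 and 173 CPM in HET IL-6, 203 and 221 CPM in HET control, 132 and 128 CPM in WT IL-6, and 224 and 173 CPM in WT control. Its WT control libraries spanned those of HET control, and WT IL-6 was again the group set apart. Atf3 encodes a stress-induced bZIP factor that can pair with JUN proteins and represses inflammatory genes in macrophages. This gene, the most abundant of the set, was at 434 and 403 CPM in HET IL-6, 490 and 528 CPM in HET control, 306 and 350 CPM in WT IL-6, and 676 and 533 CPM in WT control. No group of Atf3 overlapped its neighbour in the order of means.

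Jun encodes the AP-1 subunit that activates its own promoter. It was at 68.1 and 69.2 CPM in HET IL-6, 61.7 and 68.7 CPM in HET control, 42.8 and 43.5 CPM in WT IL-6, and 97.6 and 80.0 CPM in WT control. The 2 HET groups overlapped and lay between the low WT IL-6 and the high WT control libraries. Junb, a JUN family member that is a weaker activator and can oppose JUN, was at 243 and 324 CPM in HET IL-6, 248 and 309 CPM in HET control, 130 and 116 CPM in WT IL-6, and 185 and 249 CPM in WT control. Its 2 HET groups spanned nearly the same range, and HET control overlapped WT control by a narrow margin. Ier2, an immediate early gene whose nuclear protein is less well characterised, was at 33.4 and 42.4 CPM in HET IL-6, 36.9 and 48.3 CPM in HET control, 20.8 and 21.2 CPM in WT IL-6, and 34.9 and 38.0 CPM in WT control. Its WT IL-6 libraries were low, and the other 3 groups overlapped.

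**Figure D1:**
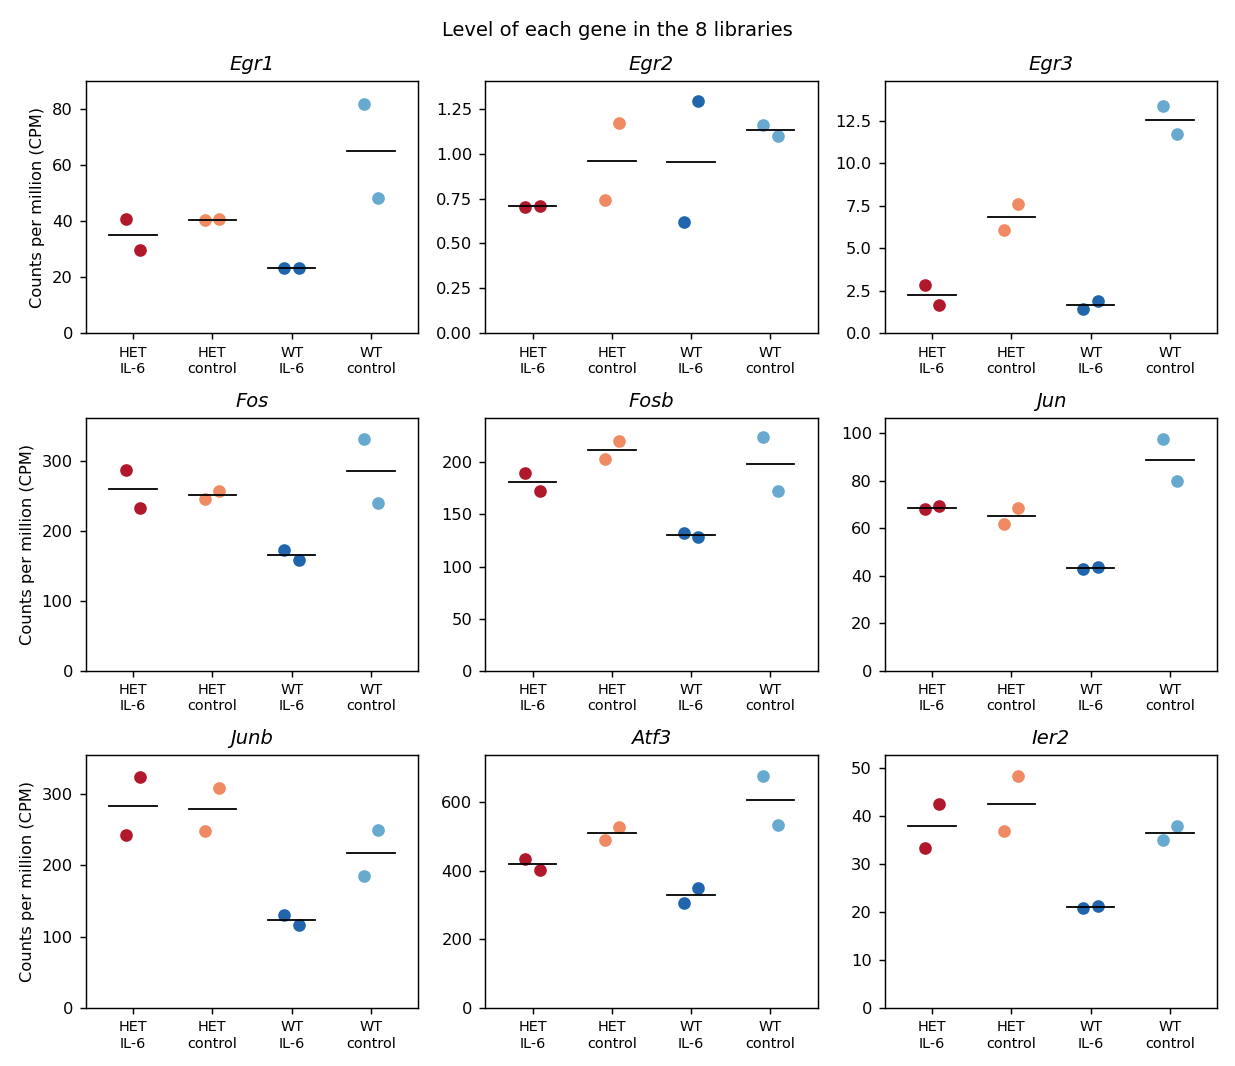
Each panel plots CPM (vertical axis, from 0) of 1 gene in the HET IL-6, HET control, WT IL-6 and WT control libraries, with a point for each library (number 1 left, number 2 right) and a line at the mean of the 2. WT IL-6 is the lowest group in all panels other than that of Egr2, and in Egr3 it overlaps HET IL-6.

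In WT macrophages, IL-6 was followed by lower levels of nearly all of these genes. Egr1, Egr3, Fos, Fosb, Jun, Junb, Atf3 and Ier2 fell, 8 of the 9 tested genes, where 10.4% of all tested genes were called lower, 7.91% higher and 18.3% in either direction. The median log2 fold change of the 9 genes was -0.82, against -0.01 over all tested genes. The libraries of the 2 treatments did not overlap for 8 of the 9 genes, as for 52.6% of all tested genes. By edgeR's quasi-likelihood F test with Benjamini-Hochberg adjustment over all tested genes, Egr3 fell to 1.67 ± 0.370 CPM in WT IL-6, against 12.5 ± 1.25 CPM in WT control (SD, n = 2 libraries each), a log2 fold change of -2.93 ± 0.24 (SE; adjusted p = 1.33e-06). Egr1 fell to 23.3 ± 0.186 CPM in WT IL-6, against 65.1 ± 23.8 CPM in WT control, by -1.49 ± 0.26 (edgeR adjusted p = 0.00793). Jun followed with 43.1 ± 0.469 CPM in WT IL-6 and 88.8 ± 12.4 CPM in WT control, a log2 fold change of -1.04 ± 0.10 (edgeR adjusted p = 5.58e-06). The falls of the other 5 were smaller and close to each other, with log2 fold changes of -0.88 ± 0.11 for Atf3, -0.82 ± 0.17 for Junb, -0.79 ± 0.14 for Fos, -0.79 ± 0.14 for Ier2 and -0.61 ± 0.11 for Fosb, and edgeR adjusted p-values up to 0.0075 (Junb). Egr2 had a log2 fold change of -0.28 ± 0.39 (edgeR adjusted p = 0.674).

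The WT calls of Egr3, Fos, Fosb, Jun, Atf3 and Ier2 held without each single library. Egr1 was no longer called by edgeR without WT IL-6 number 1 (-1.48, adjusted p = 0.152) or number 2 (-1.49, adjusted p = 0.108). Junb lost its edgeR call without WT IL-6 number 1 (adjusted p = 0.117), WT IL-6 number 2 (adjusted p = 0.146) or WT control number 2 (adjusted p = 0.095).

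In HET macrophages, Egr3 was the only one of the 9 genes called lower after IL-6. Of all tested genes, 9.41% were called lower, 8.87% higher and 18.3% in either direction. Egr3 fell to 2.28 ± 0.819 CPM in HET IL-6, against 6.85 ± 1.08 CPM in HET control. Its log2 fold change was -1.66 ± 0.23 (edgeR adjusted p = 0.00014), and this call held without each library. Jun had 68.7 ± 0.759 CPM in HET IL-6 and 65.2 ± 4.93 CPM in HET control, a log2 fold change of 0.08 ± 0.10 (edgeR adjusted p = 0.664). Fos, at 260 ± 38.7 CPM in HET IL-6 and 252 ± 7.78 CPM in HET control, and Junb, at 284 ± 57.1 and 279 ± 42.9 CPM in the same groups, had log2 fold changes of 0.05 ± 0.13 and 0.03 ± 0.17. The estimates for Egr1, Fosb, Atf3 and Ier2 ran from -0.28 ± 0.11 (Atf3, edgeR adjusted p = 0.0918) to -0.16 ± 0.13 (Ier2, edgeR adjusted p = 0.449), and that of Egr2 was -0.44 ± 0.39. The 9 genes had a median of -0.21, against 0.01 over all tested genes, and the libraries of the treatments were apart for 4 of them, as for 64.8% of all tested genes. Atf3 and Fosb were called lower when WT control number 1 (edgeR adjusted p = 0.0174 and 0.0411) or WT control number 2 (0.0169 and 0.0402) was left out, which changed the shared estimate of spread.

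**Figure D2:**
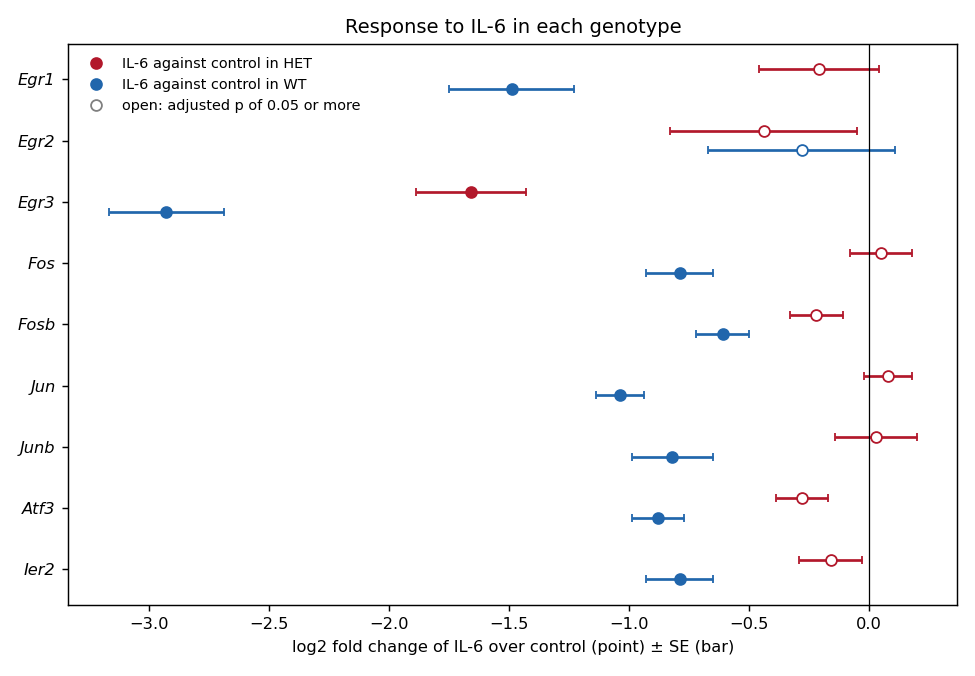
The horizontal axis gives the log2 fold change of IL-6 over control, with its SE as a bar, for each of the 9 tested genes in HET (red) and WT (blue). Filled points have an edgeR adjusted p under 0.05, as 1 gene (Egr3) has in HET and 8 genes have in WT.

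The difference between these 2 responses was tested directly, as an interaction of genotype and treatment. The response was less negative in HET than in WT for Egr3, Fos, Jun and Atf3, 4 of the 9 genes called, where 4.52% of all tested genes were called with a higher response in HET, 3.60% with a lower one and 8.12% in all. For Jun the difference of log2 fold changes, HET minus WT, was 1.12 ± 0.14 (SE; edgeR adjusted p = 0.000414). It was 1.27 ± 0.34 for Egr3 (adjusted p = 0.0364), 0.83 ± 0.19 for Fos (adjusted p = 0.0205) and 0.60 ± 0.15 for Atf3 (adjusted p = 0.0294), all by edgeR. The estimates for Egr1 (1.27 ± 0.36, adjusted p = 0.0871), Junb (0.85 ± 0.24, adjusted p = 0.0582) and Ier2 (0.63 ± 0.19, adjusted p = 0.055) missed the edgeR threshold. Fosb was at 0.38 ± 0.15 (edgeR adjusted p = 0.147) and Egr2 at -0.15 ± 0.55 (edgeR adjusted p = 0.907). The median of the 9 differences was 0.83, against 0.02 over all tested genes.

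The difference for Jun was called without each library in turn, at 0.97 to 1.26. The calls of Egr3, Fos and Atf3 were each lost without several single libraries: Egr3 without number 1 of any group (edgeR adjusted p up to 0.169), Fos without HET IL-6, HET control or WT IL-6 number 1 or WT IL-6 number 2 (up to 0.0938), and Atf3 without each library other than WT IL-6 number 2 and WT control number 2 (up to 0.154). Egr1 was called without HET IL-6 number 2 (1.47, adjusted p = 0.0267), WT control number 1 (0.84, adjusted p = 0.024) or WT control number 2 (adjusted p = 0.000172), by edgeR. Junb and Ier2 were called by edgeR without HET IL-6 number 1 (adjusted p = 0.0173 and 0.0436) or HET control number 2 (0.0262 and 0.0214), and Fosb without WT control number 2 (0.56, adjusted p = 0.00437).

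After IL-6, most of the FOS and JUN family genes were called higher in HET than in WT macrophages. Most of these calls were lost when offsets for GC content and length were added to the same fit. Fos, Fosb, Jun, Junb, Atf3 and Ier2 were higher in HET, 6 of the 9 genes, where 13.2% of all tested genes were called higher, 8.80% lower and 22.0% in either direction. The comparison uses the same WT IL-6 libraries as the WT response above, so the 2 sets of values are not independent. With offsets for GC content and length in each library, Jun alone of the 9 was called higher, where 5.36% of all tested genes were, and the log2 fold changes of Junb, Ier2 and Fosb were 0.65, 0.37 and 0.17 in place of the 1.21, 0.86 and 0.48 without offsets. With a term for library number (a replicate block) beside the offsets, Fos, Jun, Junb and Ier2 kept their calls, and Fosb and Atf3 lost them. In that fit 1513 of the 13721 tested genes were called. The labels do not say that the numbers pair libraries. Junb was at 284 ± 57.1 CPM in HET IL-6 and 123 ± 9.29 CPM in WT IL-6, a log2 fold change of 1.21 ± 0.17 (edgeR adjusted p = 0.00126). Ier2 was at 37.9 ± 6.41 CPM in HET IL-6 and 21.0 ± 0.269 CPM in WT IL-6, at 0.86 ± 0.14 (edgeR adjusted p = 0.00088). The log2 fold changes of Jun (0.67 ± 0.10), Fos (0.65 ± 0.14), Fosb (0.48 ± 0.11) and Atf3 (0.35 ± 0.11) had edgeR adjusted p-values from 0.000587 (Jun) to 0.0342 (Atf3). The EGR genes were not called, with 0.59 ± 0.26 for Egr1 (adjusted p = 0.158), 0.40 ± 0.28 for Egr3 (adjusted p = 0.337) and -0.39 ± 0.40 for Egr2 (adjusted p = 0.515), by edgeR. The median over the 9 genes was 0.59, against -0.01 over all tested genes, and the libraries were apart for 7 of them, as for 65.1% of all tested genes.

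In control cultures Jun and Egr3 were lower in HET than in WT, 2 of the 9 genes, where 2.05% of all tested genes were called lower, 2.81% higher and 4.85% in either direction. Jun was at 65.2 ± 4.93 CPM in HET control and 88.8 ± 12.4 CPM in WT control, a log2 fold change of -0.45 ± 0.10 (edgeR adjusted p = 0.0221). Egr3 was at 6.85 ± 1.08 CPM in HET control and 12.5 ± 1.25 CPM in WT control, at -0.87 ± 0.20 (edgeR adjusted p = 0.0252). Jun was thus called lower in HET without IL-6 and higher in HET with it. With the replicate block alone neither Jun nor Egr3 was called in control, and with the block and the offsets both were. The estimates of Egr1 (-0.69 ± 0.25, adjusted p = 0.18) and Atf3 (-0.25 ± 0.11, adjusted p = 0.21) were not called by edgeR, nor were those of Egr2, Fos, Fosb, Junb and Ier2, which ran from -0.23 ± 0.38 (Egr2) to 0.36 ± 0.17 (Junb). The median was -0.23 over the 9 genes and -0.00 over all tested genes, and libraries were apart for 4 of the 9, as for 50.6% of all tested genes. Both control calls were lost by edgeR without HET control number 1 (Egr3 -0.72 and Jun -0.37, both adjusted p = 0.275), HET control number 2 (-1.04 and -0.53, both adjusted p = 0.0638) or WT control number 1 (-0.76 and -0.30, adjusted p = 0.0542 and 0.0546). Without WT control number 2 they were kept, and Egr1 (-1.02, adjusted p = 0.00184) and Atf3 (-0.41, adjusted p = 0.0284) were called too.

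Among the calls between genotypes after IL-6, those of Jun and Ier2 held without each library. Fos lost its edgeR call without HET IL-6 number 1 (0.48, adjusted p = 0.0651), WT IL-6 number 1 (0.71, adjusted p = 0.0702) or WT IL-6 number 2 (0.58, adjusted p = 0.0546). Fosb lost its edgeR call without HET IL-6 number 1 (0.40, adjusted p = 0.0853), Junb without WT IL-6 number 1 (1.29, adjusted p = 0.062), and Atf3 without any HET library or WT IL-6 number 1 (0.26 to 0.39, adjusted p up to 0.261). Egr1 was called higher in HET by edgeR without WT control number 1 (0.58, adjusted p = 0.00412) or number 2 (0.58, adjusted p = 0.00418). Both HET libraries numbered 2, whose Dnmt3a was not below both WT libraries of their treatment, were also left out together. That left 1 library in each HET group, so effect sizes are given here. Log2 fold changes whose sign or call changed were 0.02 for Egr1 and -0.03 for Junb (IL-6 in HET), 0.41 for Atf3 (genotypes after IL-6) and -0.53 for Jun (control). For the difference of responses they were 0.79 for Junb, 0.71 for Atf3 and 0.21 for Egr2.

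Differences between the genotypes ran with the GC content of the genes. When the tested genes were split into 10 equal groups by the GC content of their exons, the median HET over WT log2 fold change after IL-6 went up in steps, starting at -0.27 in the group of lowest GC and ending at 0.43 in that of highest GC, where 49.3% of genes were called higher. In control the same medians were -0.19 and 0.18. Relative to the mean over the 8 libraries, the median gene of the group of highest GC was at 0.16 and 0.21 in HET IL-6, 0.13 and 0.13 in HET control, -0.29 and -0.21 in WT IL-6 and 0.01 and -0.10 in WT control (log2, numbers 1 and 2). The EGR and AP-1 immediate early genes are GC-rich, with exons of 52.0% (Fos) to 62.6% GC (Junb). Junb, Ier2 (60.9%) and Egr1 (57.3%) fall in the group of highest GC, and 66.5% of tested genes have a GC content at or below that of Fos. Whether GC content itself contributes to the genotype differences was not tested.

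Set against the median of its own GC group, the HET over WT log2 fold change after IL-6 was higher by 0.77 for Junb, 0.55 for Fos, 0.42 for Ier2, 0.38 for Jun, 0.25 for Atf3, 0.22 for Egr3, 0.19 for Fosb and 0.15 for Egr1, and Egr2 was at -0.56. With the GC and length offsets, Jun was called higher in HET after IL-6 at 0.37 ± 0.07 (edgeR adjusted p = 0.00437). The other 5 calls were lost, Junb at 0.65 ± 0.21 (adjusted p = 0.141), Ier2 at 0.37 ± 0.13 (adjusted p = 0.11), Fos at 0.52 ± 0.14 (adjusted p = 0.0709), Atf3 at 0.22 ± 0.07 (adjusted p = 0.071) and Fosb at 0.17 ± 0.09 (adjusted p = 0.242), all by edgeR with these offsets. In control, the offsets gave calls for Jun (-0.59 ± 0.07), Egr3 (-0.96 ± 0.18) and also Atf3 (-0.30 ± 0.07, edgeR adjusted p = 0.0307), where 4.92% of all tested genes were called.

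The IL-6 response in WT moved less with GC, with medians of 0.05 in the group of lowest GC and -0.21 in that of highest GC, and in HET the 2 medians were -0.03 and 0.04. In WT 23.9% of the genes of highest GC were called lower. For the difference of responses the medians were -0.09 and 0.26, and 12.5% of the genes of highest GC were called higher. With the offsets, 7 of the 8 calls in WT were kept, where 23.6% of all tested genes were called, and Junb was at -0.51 ± 0.22 (edgeR adjusted p = 0.178). Jun fell by 0.90 ± 0.07 in WT on that scale, Atf3 by 0.83 ± 0.07 and Egr3 by 2.87 ± 0.22. In HET, Egr3 (-1.68 ± 0.21) and Atf3 (-0.31 ± 0.07, edgeR adjusted p = 0.00513) were called lower with the offsets, where 25.6% of all tested genes were called. The difference of responses was called for Jun (0.96 ± 0.10, adjusted p = 5.03e-05), Atf3 (0.52 ± 0.10, adjusted p = 0.00463) and Egr3 (1.19 ± 0.32, adjusted p = 0.025), and no longer for Fos (0.75 ± 0.20, adjusted p = 0.0624), by edgeR with the offsets. For this difference 13.0% of all tested genes were called with the offsets.

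**Figure D3:**
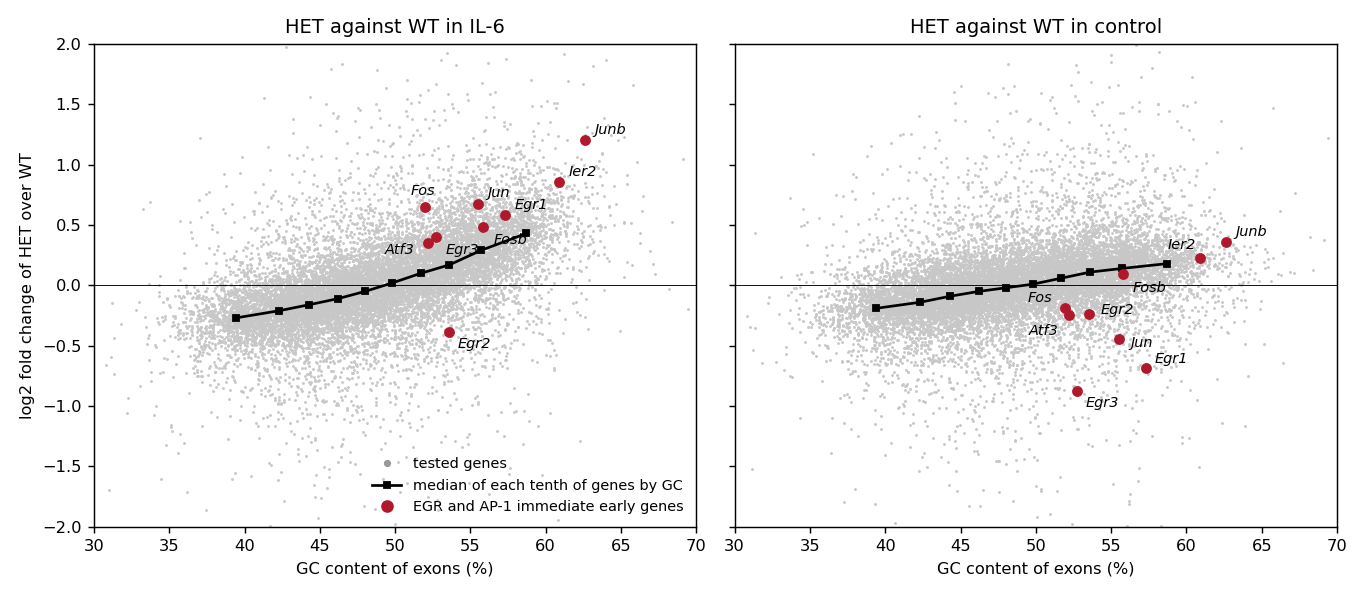
The HET over WT log2 fold change (vertical axis, cut at -2 and 2) is plotted against the GC content of exons in percent (horizontal axis) after IL-6 (left) and in control (right), with grey points for tested genes, black squares for the medians of 10 equal groups by GC and red points for the EGR and AP-1 immediate early genes. The medians run from -0.27 to 0.43 after IL-6 and from -0.19 to 0.18 in control, and Junb and Ier2 lie furthest to the right.

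Other immediate early genes went the same way in part. Of 35 listed, 33 were tested, and in WT 20 fell and 2 rose after IL-6, with a median log2 fold change of -0.42, where 18.3% of all tested genes were called in either direction. With adjustment for GC and length, 13 were called lower and 2 higher in WT, where 23.6% of all tested genes were called. The small GTPase gene Rhob (-1.09 ± 0.08), the polo-like kinase gene Plk2 (-1.30 ± 0.11) and the Krüppel-like factor genes Klf2 (-1.58 ± 0.15) and Klf6 (-0.75 ± 0.08) had the smallest p-values. In HET, 13 of the 33 fell and 4 rose (18.3% of all tested genes called), with a median of -0.23, led by the nuclear receptor gene Nr4a1 (-0.92 ± 0.10), Id1 (-1.40 ± 0.15), Klf10 (-0.61 ± 0.08) and Id3 (-0.78 ± 0.10). The response was called higher in HET for 8 and lower for 3, against 8.12% of all tested genes called, and for 8 and 5 with the offsets, against 13.0%. Without the offsets, Rhob (0.87 ± 0.11), Plk2 (1.12 ± 0.15), Klf4 (1.11 ± 0.16) and Ier3 (1.18 ± 0.17) were first by p-value. Ier3 was at 77.1 ± 3.65 CPM in HET IL-6, 62.3 ± 13.2 CPM in HET control, 40.1 ± 4.47 CPM in WT IL-6 and 73.1 ± 3.33 CPM in WT control (SD, n = 2). After IL-6, 15 of the 33 were higher and 5 lower in HET than in WT, where 22.0% of all tested genes were called, and with the offsets these counts were 4 and 5, where 11.9% were. In control 3 were higher and 4 lower, where 4.85% of all tested genes were called, with Plk2 at -0.77 ± 0.11 and Nr4a1 at 0.64 ± 0.10.

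Of the inhibitors that dampen MAP kinase signalling, many of them transcribed downstream of it, 13 were tested. In WT 6 of them fell and 3 rose after IL-6, where 18.3% of all tested genes were called, among them the dual-specificity phosphatase genes Dusp4 (-1.05 ± 0.08), Dusp6 (-0.72 ± 0.11) and Dusp8 (-0.71 ± 0.14) and the Sprouty gene Spry2 (-1.69 ± 0.18), which fell. In HET 3 fell and 1 rose, where 18.3% of all tested genes were also called, with Dusp4 at -0.74 ± 0.08 and Spry2 at -0.75 ± 0.17. The responses differed for Dusp6 (0.90 ± 0.15), Spry2 (0.93 ± 0.25), Dusp1 (0.58 ± 0.15) and, in the other direction, Dusp5 (-0.64 ± 0.12), whose exons an antisense gene overlaps over 22.1% of their bases. For this difference 8.12% of all tested genes were called. Between genotypes after IL-6, 4 were higher and 1 lower in HET, where 22.0% of all tested genes were called, but with the GC and length offsets 1 was higher and 2 were lower, where 11.9% were. In control 2 were higher and 2 lower, where 4.85% of all tested genes were called, and 2 higher and 3 lower with the offsets, where 4.92% were. In control Dusp6 (-0.44 ± 0.10) and Spry2 (-0.73 ± 0.16) were lower in HET, and Dusp2 (0.90 ± 0.11) and Dusp5 (0.53 ± 0.08) were higher.

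**Figure D4:**
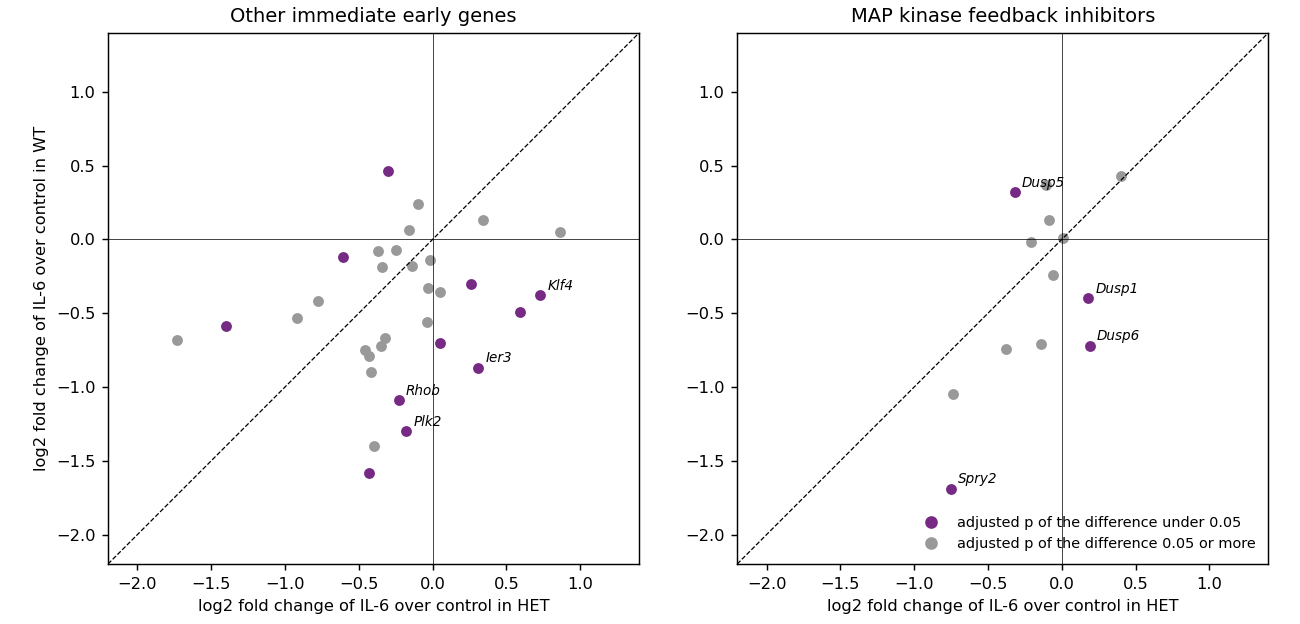
Points are genes of the lists of other immediate early genes (left, 33 tested) and MAP kinase feedback inhibitors (right, 13 tested), with the log2 fold change of IL-6 over control in HET on the horizontal and in WT on the vertical axis and equal values on the dashed line. Purple points have an edgeR adjusted p of the difference under 0.05, 11 on the left and 4 on the right, of which the 4 with the smallest p in each list are named.

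Of the regulators upstream, 8 serum response, ternary complex and CREB family genes were tested. In WT Srf, which encodes serum response factor (-0.36 ± 0.09), and its coactivator gene Mrtfa (-0.29 ± 0.09) fell after IL-6, and Crem rose (0.68 ± 0.11). With the GC and length offsets Srf (-0.03 ± 0.08, adjusted p = 0.825) and Mrtfa (-0.13 ± 0.06, adjusted p = 0.179) were no longer called by edgeR in WT, where 2 of the 8 were called higher and none lower. Of all tested genes, 18.3% were called in WT without the offsets and 23.6% with them. In HET only Crem was called, at 0.68 ± 0.11, where 18.3% of all tested genes were called. Srf (0.64 ± 0.09) and Mrtfa (0.52 ± 0.09) were called higher in HET than in WT after IL-6, where 22.0% of all tested genes were called. With the offsets both calls were lost, Srf at 0.06 ± 0.08 (adjusted p = 0.668) and Mrtfa at 0.16 ± 0.06 (adjusted p = 0.112), and the ternary complex factor gene Elk1 was called higher instead (0.26 ± 0.07, adjusted p = 0.0296), all by edgeR. None of the 8 was called by edgeR or DESeq2 in control or for the difference, where 2 and 3 had an unadjusted edgeR p under 0.05 and the difference for Srf was 0.35 ± 0.13 (edgeR adjusted p = 0.119).

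Among 16 genes of the MAP kinase cascade, the p38 kinase kinase gene Map2k6 fell in both HET (-1.01 ± 0.16) and WT (-1.15 ± 0.16) after IL-6. Counting all calls, 2 rose and 4 fell in HET, and 2 rose and 2 fell in WT, where 18.3% of all tested genes were called in each genotype. Once adjusted for GC and length, 3 were called higher and 4 lower in HET, and 4 higher and 2 lower in WT, where 25.6% and 23.6% of all tested genes were called. Csf1r, which encodes the M-CSF receptor, fell in HET (-0.36 ± 0.08), and its response differed between the genotypes (-0.43 ± 0.11). An antisense gene overlaps 15.1% of the exon bases of Csf1r. Map2k2, the kinase directly above ERK, was higher in HET than in WT after IL-6 (0.84 ± 0.09), where 1 was called higher and 2 lower, against 22.0% of all tested genes called. With the offsets 1 was higher and 4 were lower, where 11.9% of all tested genes were called, and Map2k2 was at 0.49 ± 0.07 (edgeR adjusted p = 0.000926). In control 1 of the 16, Rps6ka1, was called, and higher in HET (0.34 ± 0.09), where 4.85% of all tested genes were called. This call was lost with the offsets (0.17 ± 0.06, edgeR adjusted p = 0.0992).

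Of the other AP-1 genes and their bZIP partners, 10 were tested. In WT 1 of them fell (Mafk, -0.64 ± 0.10) and none rose, where 18.3% of all tested genes were called. With the GC and length offsets Jdp2 was also called in WT, and higher (0.52 ± 0.10, edgeR adjusted p = 0.00193), where 23.6% of all tested genes were called. In HET, Batf (0.98 ± 0.20), Jdp2 (0.65 ± 0.12) and Fosl2 (0.27 ± 0.09) rose after IL-6. Maff (-0.56 ± 0.12) and Mafk (-0.33 ± 0.09) fell in HET, where 18.3% of all tested genes were called. Between genotypes after IL-6, 5 were higher and 1 lower in HET, where 22.0% of all tested genes were called. With the offsets 0 were higher and 1 lower, where 11.9% of all tested genes were called. No difference of responses was called among them by edgeR or DESeq2, with Batf at 0.78 ± 0.30 (edgeR adjusted p = 0.138) and 3 at an unadjusted edgeR p under 0.05. In control none was called by either tool, and 2 had an unadjusted edgeR p under 0.05. The EGR corepressor genes Nab1 and Nab2 were not called by edgeR or DESeq2 in any of the 5 comparisons, and 1 unadjusted edgeR p was under 0.05, in control. The response of Nab2 was 0.14 ± 0.14 in HET and 0.32 ± 0.15 in WT. With the GC and length offsets Nab2 was called higher after IL-6 in WT (0.54 ± 0.15, edgeR adjusted p = 0.0151). Antisense genes overlap 42.2% of the exon bases of Nab2, and the strand setting of the counting is not given. The share of its counts affected is thus not known.

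Heat shock genes, which respond to handling of cells and tissue, were looked at as a sign of stress at collection. None of 12 tested was called by edgeR after IL-6 in HET, after IL-6 in WT or between genotypes in control, where 1, 4 and 1 had an unadjusted p under 0.05 and DESeq2 called 0, 1 and 0. With the GC and length offsets edgeR called Dnaja1 lower after IL-6 in HET (-0.23 ± 0.07, adjusted p = 0.0171) and, in WT, Hspa8 (0.23 ± 0.05, adjusted p = 0.00438) and Hsp90ab1 (0.17 ± 0.05, adjusted p = 0.0252) higher and Dnajb4 (-0.25 ± 0.08, adjusted p = 0.026) lower. With these offsets 25.6% of all tested genes were called in HET and 23.6% in WT. Between genotypes after IL-6, 4 were lower in HET, Hspa8, Hsph1, Hsp90aa1 and Dnaja1, where 8.80% of all tested genes were called lower and 22.0% in either direction. With the offsets 3 of the 12 were lower, where 6.52% of all tested genes were called lower and 11.9% in either direction. The summed macrophage markers were 11908 to 12202 CPM in HET IL-6, 12792 to 12945 CPM in HET control, 13171 to 14141 CPM in WT IL-6 and 11898 to 12498 CPM in WT control. Of these 8 markers, 5 were called between genotypes after IL-6, where 22.0% of all tested genes were called. The 4 monocyte markers, mostly Ccr2, summed to 36.7 to 44.4 CPM in HET IL-6, 24.3 to 34.2 CPM in HET control, 54.2 to 70.7 CPM in WT IL-6 and 36.8 to 43.7 CPM in WT control. Both sums were highest in WT IL-6, the group in which most of the immediate early genes were lowest. The mast cell and basophil markers, mostly Kit, summed to 3.28 to 3.36 CPM in HET IL-6 and 2.27 to 3.68 CPM in HET control. They summed to 1.66 to 1.70 CPM in WT IL-6 and 5.12 to 8.40 CPM in WT control. Of this list Fcer1a was at 0, and Mcpt8 and Ms4a2 were at most 0.0536 and 0.0441 CPM in any library. By the sum WT IL-6 was lowest and WT control highest, as for Egr1, Egr3, Fos, Jun and Atf3 by group means. One of these markers, Kit, was called by edgeR, with a log2 fold change of -2.12 ± 0.30 after IL-6 in WT (adjusted p = 0.000171) and 1.05 ± 0.31 between HET and WT after IL-6 (adjusted p = 0.0277). The megakaryocyte markers summed to 272 to 296 CPM in HET IL-6, 122 to 132 CPM in HET control, 197 to 202 CPM in WT IL-6 and 123 to 130 CPM in WT control. The part of these lists in the result was not tested, and less RNA per cell cannot be told apart from fewer cells that express a gene.

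Likeness to other genes was measured as the root mean square difference of log2(CPM + 0.5) values, each centred on its mean over the 8 libraries, among 9308 genes with a mean of at least 5 CPM. Jun was nearest to Insig1 (0.07) and Dhcr7 (0.08), genes of sterol regulation and synthesis. Fos was nearest to Ypel3 and Scarb1 (both 0.09), Fosb to Mcrip1 and Stard3 (both 0.07), and Atf3 to Rps6ka2 (0.06) and Snx29 (0.08). Egr1 was nearest to Cyp27a1 and Plk2 (both 0.17), Egr2 to Vezf1 (0.12) and Bbs9 (0.15), and Egr3 to Rasgrp3 (0.28) and Tox2 (0.29). Junb was nearest to the ribosomal protein genes Rpl36 (0.13) and Rplp1 (0.15), and Ier2 to Cdkn2a and Plekhh3 (both 0.10). Within the set, Fos and Fosb were closest to each other (0.13), as were Junb and Ier2 (0.17), while Jun was closest to Fos (0.15) and Atf3 to Jun (0.15). Egr3 was the farthest from each of the other 8, at 0.63 (Egr1) to 1.02 (Junb). These distances describe 8 libraries that also share a GC trend, and carry no test.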

How the data were processed

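The 10 genes, the gene lists and the rules for naming genes were chosen with earlier results of these data known. The values used were raw gene counts, deposited by the authors for 8 libraries. Per the labels' protocols, libraries were prepared from polyadenylated RNA with a kit that keeps the strand. Tools in the submitters' processing notes are featureCounts 1.6.2, SAMtools 1.9, STAR 2.7.9a and fastp 0.12.4, and the build is mm10. Which annotation was counted, and with which strand setting, is not given in the sources used here. Exon length and GC content came from annotation release M21, which had the same start and end for 98.0% of the genes of the deposited table and gave GC content for 99.3% of tested genes. Date-like symbols replaced 26 gene names, and position restored 25.

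Counts were tested with edgeR 4.0.16 (R 4.3.3). The filterByExpr function with a minimum count of 10 chose the genes tested, TMM scaled the libraries, and 1 mean per group was fitted to all 8 libraries (robust quasi-likelihood F test, 2-sided, 4 residual degrees of freedom). P-values were adjusted by Benjamini-Hochberg over 13721 genes, and a gene was called at an adjusted p under 0.05. CPM values are TMM-scaled, with SD over 2 libraries. Floors of 3 counts cover counting error only. Total counts ran from 18926641 to 50137897 per library. Replicate libraries differed beyond sampling noise in all groups (chi-square per gene 6.39 to 18.4), more so in WT than in HET groups, and the spread was estimated over all groups together.

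All 10 genes could be named in each comparison. Of other lists up to 4 genes with the smallest p could be named, and all called genes where at most 5 were called. Alternatives were DESeq2 1.42.0 (its Wald test, and its size factors in edgeR), scaling to total counts, no filter, GC and length offsets (splines with 5 degrees of freedom per library, from genes of at least 1 CPM), a fit to the groups compared only, a replicate block, and leaving out each library or both of a genotype's libraries with the same number. The steps were tested on simulated data. Current symbols stood in for older ones in the lists.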

Additional observations from a re-analysis of the deposited data

Results flagged for a closer look

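The genes of this section were singled out because their response to IL-6 differed between HET and WT in the test of that difference (edgeR, adjusted over all tested genes). Values are the difference of log2 fold changes, HET minus WT, ± SE, followed by the response in HET and in WT. Among the EGR and AP-1 immediate early genes these were Jun (1.12 ± 0.14, with 0.08 in HET and -1.04 in WT), Egr3 (1.27 ± 0.34, with -1.66 and -2.93), Fos (0.83 ± 0.19, with 0.05 and -0.79) and Atf3 (0.60 ± 0.15, with -0.28 and -0.88).

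Of the other immediate early genes that could be named, they were Ier3 (1.18 ± 0.17, with 0.31 in HET and -0.87 in WT), Plk2 (1.12 ± 0.15, with -0.18 and -1.30), Klf4 (1.11 ± 0.16, with 0.73 and -0.38) and Rhob (0.87 ± 0.11, with -0.23 and -1.09). Of the MAP kinase genes and their inhibitors, they were Spry2 (0.93 ± 0.25, with -0.75 in HET and -1.69 in WT), Dusp6 (0.90 ± 0.15, with 0.19 and -0.72), Dusp1 (0.58 ± 0.15, with 0.18 and -0.40), Map2k2 (0.58 ± 0.13, with 0.21 and -0.37), Dusp5 (-0.64 ± 0.12, with -0.32 and 0.32) and Csf1r (-0.43 ± 0.11, with -0.36 and 0.07). The heat shock gene Hsph1 was at -0.44 ± 0.13, with -0.19 in HET and 0.25 in WT. No cause of these differences was tested.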

How the results depend on the processing

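Counts of the 9 genes called are given in the order IL-6 in HET, IL-6 in WT, HET against WT in IL-6, HET against WT in control, and the difference, and were 1, 8, 6, 2 and 4. They moved by over 1.5 times to 2 (HET) and 8 (difference) without a filter, to 2 (HET) and 1 (genotypes in IL-6) with the GC and length offsets, and to 3 (HET) in a fit to the groups compared only. Without single libraries they ran from 1 to 3, 6 to 8, 3 to 7, 0 to 4 and 1 to 6. Without both HET libraries numbered 2 the control count was 1. Without both HET libraries numbered 1 the counts for genotypes in IL-6, control and the difference were 3, 0 and 2. Without both WT libraries numbered 2 the HET count was 3, and without those numbered 1 the HET, WT and difference counts were 3, 4 and 1. Jun kept its calls in WT, between genotypes in IL-6 and for the difference, and Egr3 its calls for IL-6 in both genotypes, under each alternative run.

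The labels do not say that numbers pair libraries, and the deviations of same-numbered libraries correlated at -0.21 to 0.19. With a replicate block the counts were 1, 8, 6, 0 and 5, so that neither Jun nor Egr3 was called in control, and with the block and the offsets 3, 8, 4, 4 and 4.

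Over all genes, 666 calls in control became 1078 without a filter, 437 with only the groups compared and 339 with the replicate block. Between genotypes in IL-6, 3021 calls became 1630 with the offsets (736 higher, 894 lower, against 1814 and 1207) and 1513 with the block and the offsets. For the difference, 1114 became 1786 with the offsets and 506 with the replicate block, and 2508 calls in HET became 3945 with only the groups compared. Leaving out 1 library moved the count in control most, to between 33 and 1304.

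No value that changed sign was called in the main analysis. Junb in HET was at -0.01 with total counts, -0.06 with the offsets, -0.07 with the replicate block and offsets, and -0.03 without both HET numbered 2. Fosb in control was at -0.07 with the offsets, at -0.06 with the replicate block and offsets, and without both WT numbered 2 at -0.08. Without both libraries of a number, Egr1 in HET was at 0.02, Fos in HET at -0.13, Fos in control at 0.07, and Egr2 at 0.05 in control, 0.18 in IL-6, 0.22 in WT, and 0.21 and 0.45 for the difference. Without single libraries, such values ran from -0.44 to 0.01 for Egr1 in HET, -0.11 to 0.19 for Fos in HET, -0.19 to 0.22 for Junb in HET and -0.35 to 0.05 for Ier2 in HET. In control they ran from -0.40 to 0.07 for Fos, -0.08 to 0.30 for Fosb and -0.60 to 0.05 for Egr2. Egr2 ran from -0.86 to 0.19 in WT, -0.86 to 0.18 between genotypes in IL-6 and -0.62 to 0.42 for the difference. The causes were not tested.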
